A study of Mus musculus with 16 samples.

Results

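The genes of the cytotoxic effector programme were examined in mouse lymphocytes that are not killer cells. They are the granzyme genes Gzma, Gzmb and Gzmk, the perforin gene Prf1, the granule membrane gene Nkg7, the receptor genes Klrd1 and Klrk1, the chemokine gene Ccl5 and the transcription factor gene Eomes. These 9 genes were taken by name, as genes of killer lymphocytes, out of 20807 autosomal protein-coding genes in GENCODE vM21 (mm10). DNA methylation had been profiled by whole genome bisulphite sequencing in 16 libraries from the spleens of C57BL/6J mice 6 to 8 weeks old, 8 from CD43- resting B cells and 8 from naive CD4+ CD62L+ T cells, both isolated with magnetic beads. Each cell type had 4 male and 4 female libraries, and each sex 2 libraries by bisulphite sequencing (BS), which reads 5-methylcytosine and 5-hydroxymethylcytosine alike, and 2 by oxidative bisulphite sequencing (oxBS), which reads 5-methylcytosine alone. No group carried a transgene, deletion or treatment. The DNA came from pooled animals, and the sources do not say which BS and oxBS libraries came from the same animals, so p-values measure the spread between libraries, which may be technical.

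Killer lymphocytes, that is natural killer cells and activated CD8+ T cells, store perforin and granzymes in granules. On contact with a target, perforin opens its membrane and the granzymes, which are serine proteases, enter and start cell death. CpG methylation around a gene start and at its enhancers is commonly low in cells that use the gene or are poised to use it, and high where the gene is silent. Methylation here is the share of calls that were methylated over the CpGs of a window, in percent, and differences are B cells minus T cells in percentage points.

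The libraries held 123693203 to 171130063 calls each, or 5.83 to 8.07 calls per autosomal CpG, so levels rest on windows and not on single CpGs. Methylation of all autosomal CpGs was 79.4% to 81.5% in B cell libraries and 78.4% to 79.6% in T cell libraries. Promoters of the marker genes followed the labels, with 6 of 7 B cell markers lower in B cells and 6 of 8 T cell markers lower in T cells past both thresholds given below. The 3 natural killer markers (Ncr1, Klrb1c and Klre1) had mean levels of 80.9% to 93.5% in both cell types, and 0 of 3 passed. Cd8a, at 86.7% in B cells versus 60.5% in T cells, and Cd8b1, at 90.3% and 34.9%, were lower in the CD4+ T cells, and the part of CD8+ cells in any result was not tested. Of 4 myeloid markers 0 passed both thresholds, with window means of 15.3% to 89.9% in B cells versus 12.4% to 92.6% in T cells. Lyz2 was lower in B cells (46.6% against 65%) without overlap and passed the first threshold. Its difference was −18.4 points (adjusted p = 3.91e-04, exact permutation p = 0.000155). The 2 male BS libraries of B cells listed 242 and 243 positions on unplaced contigs, against 16429 to 17017 in the other 14, and results were also computed without them.

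Sequences of chosen stretches are shown first, with the reference bases of GRCm38 read along the strand of the gene and CpGs in capitals. Each is the part of a 500 bp tile that is richest in CpGs, so it need not hold the CpGs that differ most. The Nkg7 tile at 500 bp and the Gzma tile at 1000 bp, described below, are not shown. They cover the tiles upstream of Nkg7 and Gzma and the Prf1 tile at −1000 bp, whose 19.5 points were the largest of that gene. The neighbouring Prf1 tile at −1500 bp, also just under 20 points, is not shown. The others are both Ccl5 tiles and the Esm1 intron with the largest difference inside the Gzmk record. The Klrd1 start, which was low in both cell types, is added as a contrast.
Nkg7, upstream of the start (chr7:43436574-43436717, plus strand): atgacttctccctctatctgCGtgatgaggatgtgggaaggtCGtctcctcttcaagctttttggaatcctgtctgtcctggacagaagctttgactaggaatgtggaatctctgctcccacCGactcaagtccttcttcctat
Gzma, upstream of the start (chr13:113101078-113101219, minus strand): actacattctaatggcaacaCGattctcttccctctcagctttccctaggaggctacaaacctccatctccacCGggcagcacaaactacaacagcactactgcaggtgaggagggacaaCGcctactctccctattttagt
Prf1, upstream of the start (chr10:61296872-61297019, plus strand): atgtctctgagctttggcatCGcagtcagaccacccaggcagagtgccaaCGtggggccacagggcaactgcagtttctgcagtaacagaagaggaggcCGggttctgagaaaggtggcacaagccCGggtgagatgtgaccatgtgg
Ccl5, distal upstream tile (chr11:83535180-83535386, minus strand): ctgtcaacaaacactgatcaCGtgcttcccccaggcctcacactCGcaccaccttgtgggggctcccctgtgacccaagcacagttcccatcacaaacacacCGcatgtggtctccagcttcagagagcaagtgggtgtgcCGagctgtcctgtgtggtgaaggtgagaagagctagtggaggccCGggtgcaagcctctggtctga
Ccl5, intron (chr11:83527209-83527416, minus strand): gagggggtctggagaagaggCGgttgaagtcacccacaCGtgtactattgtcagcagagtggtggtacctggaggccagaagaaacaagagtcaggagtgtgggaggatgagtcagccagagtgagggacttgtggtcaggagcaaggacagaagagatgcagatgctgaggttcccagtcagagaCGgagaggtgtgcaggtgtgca
Gzmk record, intron of Esm1 (chr13:113212606-113212905, minus strand): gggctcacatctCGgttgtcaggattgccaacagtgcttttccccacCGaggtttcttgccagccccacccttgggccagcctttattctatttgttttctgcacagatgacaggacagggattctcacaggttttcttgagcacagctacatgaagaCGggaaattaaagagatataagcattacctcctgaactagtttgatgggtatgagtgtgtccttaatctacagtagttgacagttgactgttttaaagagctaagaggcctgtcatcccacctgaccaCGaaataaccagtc
Klrd1, upstream of the start (chr6:129591492-129591781, plus strand): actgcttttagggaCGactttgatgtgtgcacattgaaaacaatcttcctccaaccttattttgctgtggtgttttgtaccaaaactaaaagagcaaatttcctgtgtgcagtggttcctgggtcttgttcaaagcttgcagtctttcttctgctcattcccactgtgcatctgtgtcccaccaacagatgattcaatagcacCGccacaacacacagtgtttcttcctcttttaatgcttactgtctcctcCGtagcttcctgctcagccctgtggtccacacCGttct

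Single CpGs in these stretches did not behave alike, and their levels are given as calls pooled over the 8 libraries of a cell type, without a test. In the Gzma stretch upstream of the start, the first CpG was methylated in 77.6% of 58 B cell calls and 3.17% of 63 T cell calls, while the CpG at −118 bp was at 8.00% and 1.69%. The Nkg7 stretch showed the same kind of step, with its first CpG at 59.0% in B cells versus 17.9% in T cells and its last at 12.8% and 5.80%. In the Ccl5 distal stretch all 5 CpGs differed by 45.1 to 62.2 points, and in the Esm1 intron all 4 differed by 37.2 to 63.0 points. The 4 CpGs of the Klrd1 stretch were at 0% to 2.78% in B cells versus 0% to 1.61% in T cells.

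The first comparison asked whether the start of each gene, taken as the window of 1 kb on either side of the transcription start, differed between the cell types. Nkg7, whose product sits in the granule membrane, had the largest difference of the 9, followed by Gzma. These and Ccl5, with a smaller difference, were lower in T cells with an adjusted p under 0.05. A window passed the first threshold at an adjusted p under 0.05 (quasi-binomial model with sex and assay as covariates, Benjamini-Hochberg over 20067 windows tested) and the second at a difference of at least 20 points. With both thresholds 1 of 9 members passed, against a background of 1.11% of all windows (0.708% with B cells higher). With the first alone 3 of 9 passed, all lower in T cells, against a background of 10.5% (7.46% with B cells higher and 3.01% with T cells higher). The median difference was 8.39 points over the members and 0.571 points over all windows. The members were named as killer cell genes with earlier results of these data known, so these shares describe the 9 genes only.

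**Figure D1:**
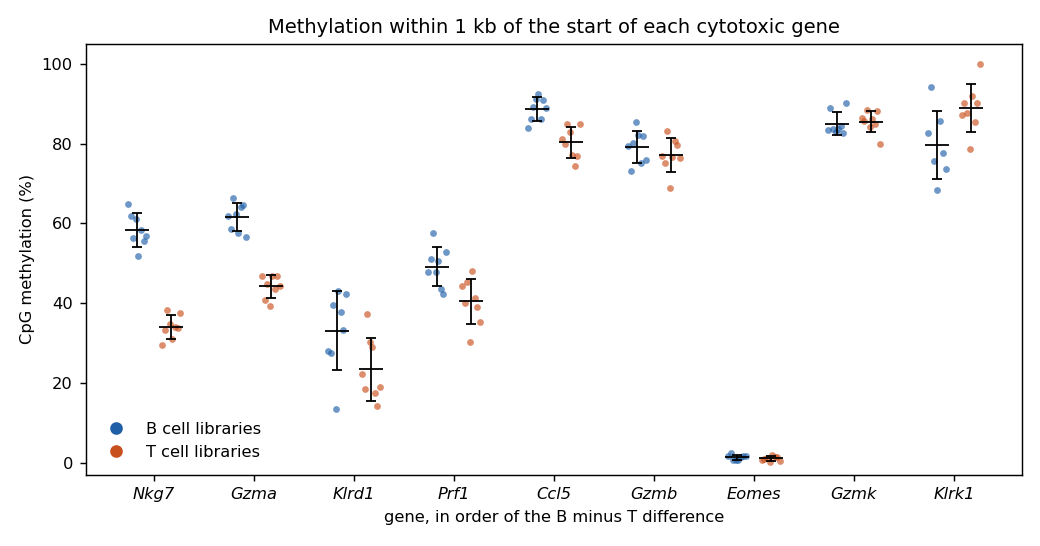
CpG methylation in percent within 1 kb of the transcription start of each gene. Points are libraries, and the bars are the mean and SD of the libraries of a cell type; genes run from the largest B minus T difference to the lowest. The groups are apart for Nkg7 (51.8% to 65% in B cells, 29.5% to 38.2% in T cells) and Gzma, and Eomes lies near 1% in both cell types.

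Nkg7 (chromosome 7, 43437073 to 43438249, plus strand) had 19 CpGs in the window. Its level was 51.8% in the lowest, 57.6% in the median and 65% in the highest B cell library, and 29.5%, 33.9% and 38.2% in T cells, so the groups did not overlap. The means were 58.3% ± 4.15 (SD, n = 8) and 34.0% ± 2.94 (SD, n = 8). The difference of 24.3 points passed both thresholds (adjusted p = 7.43e-06; exact permutation p = 0.000155, two-sided, the smallest that 8 against 8 libraries allow) and ranked 153 by size among the windows tested. With female libraries alone it was 21.5 points and the adjusted p was 0.0571.

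Gzma (chromosome 13, 113093825 to 113100981, minus strand), which encodes granzyme A, had 22 CpGs. B cell libraries ran from 56.7% through a median of 62.2% to 66.3%, and T cell libraries from 39.3% through 44.6% to 46.9%, again without overlap. The means were 61.6% ± 3.53 (SD, n = 8) and 44.2% ± 2.85 (SD, n = 8). The difference of 17.3 points passed the first threshold (adjusted p = 5.38e-05, exact permutation p = 0.000155) and lay below 20 points. With a window of 500 bp on either side the difference was 33.1 points. The call was lost with BS libraries alone (14.9 points, adjusted p 0.121), male libraries alone (19.3 points, adjusted p 0.0775) and female libraries alone (15.3 points, adjusted p 0.0981).

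Prf1 (chromosome 10, 61297833 to 61304680, plus strand), the perforin gene, was at 49.2% ± 4.97 in B cells versus 40.4% ± 5.70 in T cells (SD, n = 8 each). Libraries ran from 42.3% to 57.6% around a median of 49.2% in B cells, whereas T cells had 30.3% to 48.0% around 40.7%, with overlap. The difference of 8.75 points did not pass (adjusted p = 0.0743, exact permutation p = 0.00497). It did pass when fractions were averaged over CpGs (9.87 points, adjusted p = 0.00291), with the exact permutation test adjusted over all windows (adjusted p = 0.0425) and without T cell library 13 (adjusted p = 0.0490).

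Gzmb (chromosome 14, 56258838 to 56262260, minus strand), which encodes granzyme B, the main inducer of target cell death, had a high window average in both cell types. Its level was 79.2% ± 4.09 in B cells versus 77.2% ± 4.28 in T cells (SD, n = 8 each). B cell libraries ran from 73.2% to 85.4% around a median of 79.8% and T cell libraries from 69.0% to 83.2% around 76.7%, so the groups lay over each other. The difference of 1.96 points did not pass (adjusted p = 0.543, exact permutation p = 0.365). The CpGs next to the start were lower than this average, with calls pooled over libraries and no test. The CpG at −69 bp was at 17.2% of 58 calls in B cells and 6.94% of 72 in T cells, and that at −123 bp at 40.3% and 26.7%, whereas the 3 CpGs from 81 to 103 bp were at 71.6% to 100%.

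Gzmk, the gene of granzyme K, posed a problem of annotation. The 5′ end of its gene record lies 45011 bp upstream of the start of the principal transcript, and the record (chromosome 13, 113171608 to 113225908, minus strand) contains Esm1 (113209659 to 113218098), which encodes a proteoglycan secreted by endothelial cells. At the record's start the levels were 85.0% ± 2.88 and 85.5% ± 2.66 (SD, n = 8 each), with libraries from 82.6% to 90.1% in B cells, whereas T cells had 80% to 88.5%. At the principal start the levels were 87.0% ± 2.61 and 85.5% ± 2.30. Neither difference passed (−0.496 points with adjusted p = 0.885 and exact permutation p = 0.724, and 1.49 points with adjusted p = 0.455 and exact permutation p = 0.24), and they have opposite signs.

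The receptor genes Klrd1 and Klrk1 sit together on chromosome 6. Klrd1 encodes CD94, which pairs with NKG2 proteins, and Klrk1 encodes the activating receptor NKG2D. Klrd1 (129591782 to 129598775, plus strand) had 8 CpGs in its window and 28 to 66 calls per library. It was at 33.2% ± 9.93 in B cells versus 23.5% ± 7.91 in T cells (SD, n = 8 each), and libraries ran from 13.5% to 43.1% and from 14.3% to 37.3%, a wide overlap. The difference of 9.66 points did not pass (adjusted p = 0.261, exact permutation p = 0.0533), whereas without the 2 male BS libraries of B cells it was 13.8 points and passed (adjusted p = 0.0465).

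Klrk1 (129610323 to 129623864, minus strand) was highly methylated, at 79.7% ± 8.49 (SD, n = 7) in B cells versus 88.9% ± 6.09 (SD, n = 8) in T cells. B cell libraries ran from 68.5% to 94.1% and T cell libraries from 78.6% to 100%, so they overlapped. Here B cells were lower, and the difference of −9.17 points did not pass (adjusted p = 0.153, exact permutation p = 0.0317). At the principal transcript start the sign was opposite, with means of 96.9% in B cells versus 92.0% in T cells. That difference of 4.86 points did not pass either (adjusted p = 0.0542, exact permutation p = 0.0301).

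Ccl5 (chromosome 11, 83525778 to 83530518, minus strand) encodes a chemokine that draws T cells and other leukocytes and is released by killer cells. Its window average was high in both cell types, at 88.7% ± 2.92 in B cells versus 80.3% ± 3.86 in T cells (SD, n = 8 each). Libraries ran from 84.0% to 92.4% around a median of 89.1% in B cells, whereas T cells had 74.4% to 84.8% around 80.6%, so the groups met only at their edges. The difference of 8.39 points passed the first threshold (adjusted p = 0.00549, exact permutation p = 0.000466). It was lost when counted over 500 bp on either side (11.4 points, adjusted p 0.0562) and in each subset of 4 against 4 libraries, with 7.58 points by BS, 9.20 by oxBS, 5.45 in males and 11.3 in females (adjusted p 0.137 to 0.402).

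Eomes (chromosome 9, 118478212 to 118486132, plus strand), the T-box factor that drives cytotoxic gene expression in natural killer and CD8+ memory cells, was the exception in sequence and level. Its window held 127 CpGs and an observed to expected CpG ratio of 0.745, against 8 to 22 CpGs and ratios of 0.116 to 0.230 for the other 8. It was unmethylated in both cell types, at 1.44% ± 0.631 and 1.09% ± 0.594 (SD, n = 8 each), and no library exceeded 2.54%. The difference of 0.353 points did not pass (adjusted p = 0.60, exact permutation p = 0.266). Of all windows tested, 8.04% were lower than Eomes in B cells. Klrd1, the next lowest member, was above 63.2% of them in B cells.

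Windows average over stretches with different levels, so the second comparison followed each gene in 500 bp tiles from 5 kb upstream to the gene end. A tile is named by the distance of its first base from the transcription start. Of 306 tiles, 180 had at least 3 CpGs and enough libraries with at least 20 calls. Past both thresholds, 12 of these 180 (6.67%) differed, 10 lower in T cells and 2 lower in B cells, against a background of 3.97% of 1267446 tiles (2.6% with B cells higher and 1.37% with T cells higher). The groups did not overlap in 10 of the 12. These tiles were selected for large differences, and the share without overlap among all tiles was not counted. Some rest on few CpGs, with 4 each in the Nkg7 and Gzma tiles at −500 bp and 3 in the Ccl5 tile at 3000 bp. The count lower in T cells was 5 with at least 5 CpGs per tile and 3 with at least 40 calls per library. The median difference was 0.109 points over the member tiles and 0.502 over all tiles, with 93 of the 180 higher in B cells and differences from −22.8 to 55.1 points. The median level of the member tiles was 92.2% in B cells versus 92.5% in T cells, and 83 of the 180 tiles belong to the long Gzmk record. The next 3 tiles passed the first threshold with differences of 19.1 to 19.5 points.

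**Figure D2:**
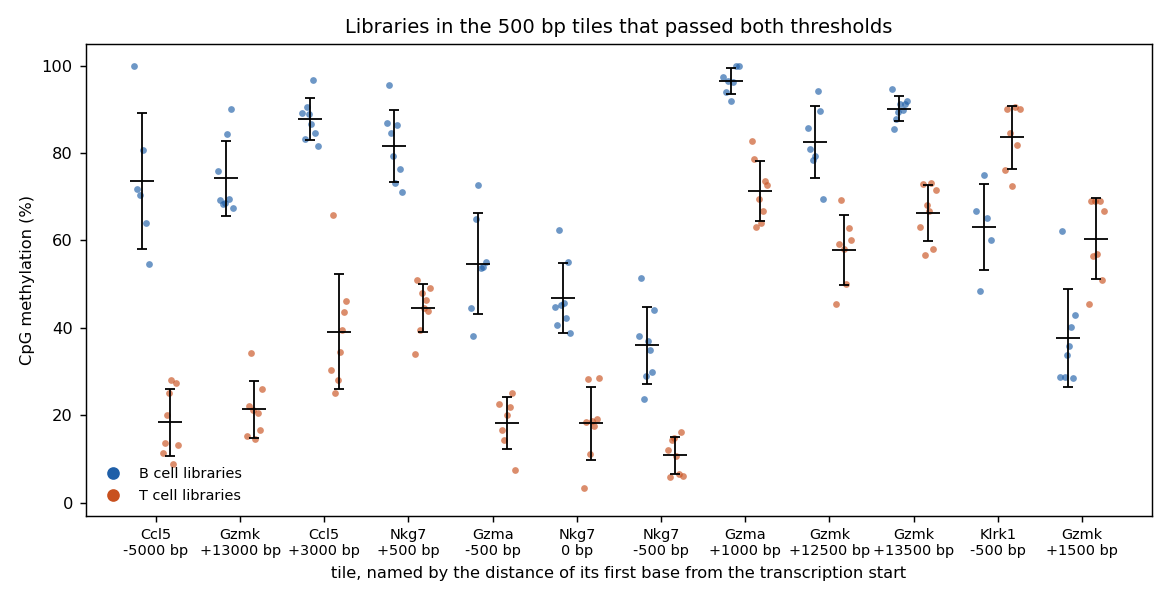
CpG methylation in percent of every library in the 12 tiles that passed both thresholds, ordered by the B minus T difference; points are libraries, bars the mean and SD. Only the 2 tiles at the right, of Klrk1 and Gzmk, are lower in B cells, and those 2 are the tiles in which the groups overlap.

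At Nkg7, 3 of 10 tested tiles passed both thresholds, against a background of 3.97%, and they lie side by side around the start. The CpGs nearest to the start were themselves low in both cell types, with calls pooled over libraries and no test. That at −76 bp was at 5.36% in B cells and 6% in T cells, and that at 7 bp at 0% and 4.65%. In the tile at −500 bp, between Lim2 and Nkg7, B cells were at 36.0% ± 8.81 and T cells at 10.8% ± 4.22 (SD, n = 8 each), a difference of 25.2 points (adjusted p = 4.04e-04, exact permutation p = 0.000155). The tile at 0 bp, with the first exon, was at 46.9% ± 7.96 and 18.1% ± 8.29 (adjusted p = 8.17e-04 for 28.7 points, exact permutation p = 0.000155). The tile at 500 bp, in coding exons, differed most, with libraries from 71.1% through 82.0% to 95.7% in B cells, whereas T cells had 34.0% through 45.4% to 50.9%. The groups were 37.1 points apart on average there (adjusted p = 2.78e-05, exact permutation p = 0.000155). The tiles at −500 and 0 bp lost the call with BS, oxBS, male or female libraries alone (adjusted p 0.101 to 0.294). The tile at 500 bp lost it with oxBS (adjusted p 0.0606) and with female libraries alone (adjusted p 0.0728). The 6 tiles from −4000 to −1500 bp, which run through Lim2, a lens gene, were at 90.4% to 97.3% in both cell types.

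At Gzma, 2 of 17 tested tiles passed both thresholds and 6 the first, against a background for the first of 8.32% (5.49% with B cells higher and 2.83% with T cells higher). The tile at 0 bp, which holds the start, was not tested. Its CpGs at 28, 38 and 51 bp were at 5.26%, 10.5% and 45.9% of pooled calls in B cells and at 0% in T cells. The tile at −1500 bp was lower in T cells by 19.4 points in BS libraries and 19.4 points in oxBS libraries. The tile at −500 bp ran from 38.2% through 53.8% to 72.7% in 7 B cell libraries and from 7.5% through 20% to 25.0% in 7 T cell libraries. Every T cell library lay below every B cell library, and the means differed by 36.4 points (adjusted p = 0.00155, exact permutation p = 0.000583). The tile at 1000 bp, in an intron, was at 96.6% ± 2.95 in B cells (n = 7) and 71.4% ± 6.91 in T cells (n = 8). The difference was 25.2 points (adjusted p = 2.87e-04, exact permutation p = 0.000155). Both tiles lost the call with BS, oxBS, male or female libraries alone. The adjusted p was then 0.157 to 0.361 for the tile at −500 bp and 0.0816 to 0.282 for that at 1000 bp. From 3500 bp to the gene end the 4 tested tiles were higher in T cells, with differences of −1.70 to −9.73 points, and none of those passed.

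**Figure D3:**
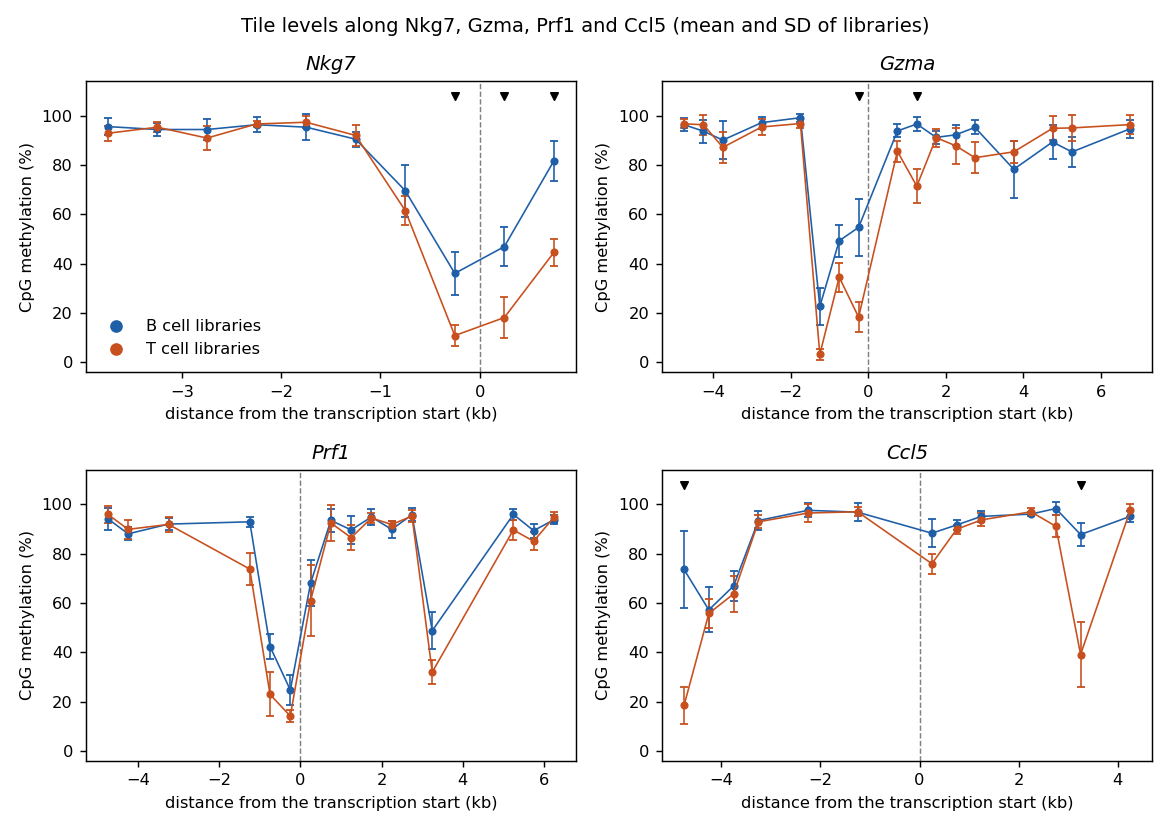
Methylation in percent of tested 500 bp tiles along Nkg7, Gzma, Prf1 and Ccl5 against distance from the transcription start in kb (dashed line). Points and bars are the mean and SD of the libraries, lines join tested tiles only, and triangles mark tiles past both thresholds. T cells dip below B cells around the starts of Nkg7 and Gzma and upstream of Prf1. For Ccl5 they do so most in the tiles at −5000 and 3000 bp, and less in the tile at 0 bp.

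At Prf1, 0 of 16 tested tiles passed both thresholds, while 5 passed the first, all lower in T cells. The background for the first was 8.32% (5.49% with B cells higher). The tile at −1500 bp was at 92.9% ± 2.04 in B cells versus 73.7% ± 6.64 in T cells without overlap, and its 19.1 points fell short of the size set (adjusted p = 4.49e-05, exact permutation p = 0.000155). The tile at −1000 bp had the largest difference of the gene, 19.5 points, from 42.3% ± 4.96 to 22.9% ± 8.91 (adjusted p = 0.00341, exact permutation p = 0.000311). Its lowest T cell library was at 11.4% and its highest at 37.8%, above the lowest B cell library at 35.7%. The tile at −500 bp, next to the start, was low in both, at 24.7% ± 6.24 and 14.1% ± 2.36, and the intronic tile at 3000 bp was at 48.7% ± 7.39 and 32.0% ± 4.99. SDs in these tiles are over 8 libraries of each cell type.

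At Ccl5, 2 of 13 tested tiles passed both thresholds and 3 the first, all lower in T cells. The backgrounds were 3.97% and 8.32%. The 2 tiles past both lie away from the start. The tile at −5000 bp, between genes, was measured in 6 B cell libraries, from 54.5% through 71.1% to 100%, and 8 T cell libraries, from 8.82% through 16.8% to 28.1%. Its difference of 55.1 points was the largest of all member tiles (adjusted p = 1.87e-04, exact permutation p = 0.000333). The tile at 3000 bp, in an intron, rests on 3 CpGs. B cell libraries ran from 81.6% through 87.8% to 96.8% and T cell libraries from 25.0% through 36.9% to 65.9%. The difference was 48.6 points (adjusted p = 7.45e-05, exact permutation p = 0.000155). This tile lost the call with oxBS (adjusted p 0.132) and with male libraries alone (adjusted p 0.136). That at −5000 bp lost it with BS (adjusted p 0.185) and with oxBS libraries alone (adjusted p 0.0664). The tile at 0 bp was at 88.3% ± 5.63 and 75.9% ± 3.98 (SD, n = 8 each). That tile was lower in T cells by 11.2 points in BS libraries and 13.6 points in oxBS libraries. Within it the CpGs at 47 and 49 bp, nearest to the start, were at 78.9% and 70.2% of 57 pooled calls each in B cells and at 45.5% and 40% of 66 and 65 calls in T cells.

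At Gzmk, 4 of 83 tested tiles passed both thresholds, 4.82% against the background of 3.97%, and they fall in 2 places of the long gene record. The tiles at 12500, 13000 and 13500 bp are next to each other in an exon and intron of Esm1 and were lower in T cells. The middle one ran from 67.5% through 69.3% to 90.2% in B cells, whereas T cells had 14.6% through 20.9% to 34.2%. It differed by 52.9 points (adjusted p = 6.1e-06, exact permutation p = 0.000155) and passed both thresholds under each alternative that gave it a value. Its neighbours differed by 24.7 and 23.9 points. Both neighbours lost the call with oxBS, male or female libraries alone, and the tile at 12500 bp also with BS libraries alone. The tile at 1500 bp was lower in B cells, at 37.6% ± 11.3 against 60.4% ± 9.26 (SD, n = 8 each), a difference of −22.8 points (adjusted p = 0.00368, exact permutation p = 0.00186), and B cell library 2 stood apart at 62.1%. Among the tiles of the record from 5 kb upstream of the principal start to the gene end, 22 were tested and 0 passed either threshold. Their differences lay between −4.62 and 5.51 points, so no tested tile near the start of the principal Gzmk transcript passed.

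The remaining members gave 1 tile past both thresholds. In Klrk1, whose gene record starts 1092 bp upstream of its principal transcript, 6 of 38 tiles were tested. The tile at −500 bp from the start of the record was lower in B cells. Its levels were 48.4% to 75.0% in 5 B cell libraries against 72.4% to 90.5% in 7 T cell libraries. The difference of −20.6 points (adjusted p = 0.0356, exact permutation p = 0.00379) was lost without T cell library 6, 7, 13 or 15 (adjusted p = 0.0699 to 0.0802), and the tile could not be tested without any of the 5 B cell libraries. In Gzmb, with 9 of 17 tiles tested, 0 passed both, and whether its untested tiles differ was not tested. Single CpGs in those untested tiles, with calls pooled over libraries, went both ways. Those covering −2825, −2910, −2916, −4042 and −4319 bp were lower in T cells. At −2825 bp 41 of 51 B cell calls and 20 of 48 T cell calls were methylated, and at −2916 bp 30 of 38 and 20 of 52. Those covering −2383, −4773, −4908 and 3126 bp were lower in B cells, with 27 of 37 and 22 of 26 at −2383 bp. The tile at −2000 bp passed the first, at 89.4% ± 5.95 in B cells versus 97.1% ± 2.22 in T cells (−7.65 points, adjusted p = 0.0278, exact permutation p = 0.00466), and lost it without B cell library 3, 10 or 11 or T cell library 7, 8, 13 or 16 (adjusted p = 0.0532 to 0.0888). The tile at −500 bp was the lowest of Gzmb, at 53.4% ± 5.91 (n = 7) and 47.4% ± 8.73 (n = 8).

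Klrd1 had 7 of 24 tiles tested and 0 past either threshold. Its tile at −500 bp was low in both cell types, at 16.1% ± 5.97 and 10.1% ± 4.95 (SD, n = 8 each), between tiles of 90.6% to 97.7%. Eomes had 19 of 26 tiles tested and 0 past either threshold. From −2000 to 1000 bp its tiles were at 0.726% to 6.72% in both cell types, rising to 88.5% and 88.9% at −3500 bp. The largest difference, 3.81 points at 2500 bp, did not pass (adjusted p = 0.741, exact permutation p = 0.267) and was 0.759 points without B cell library 2.

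**Figure D4:**
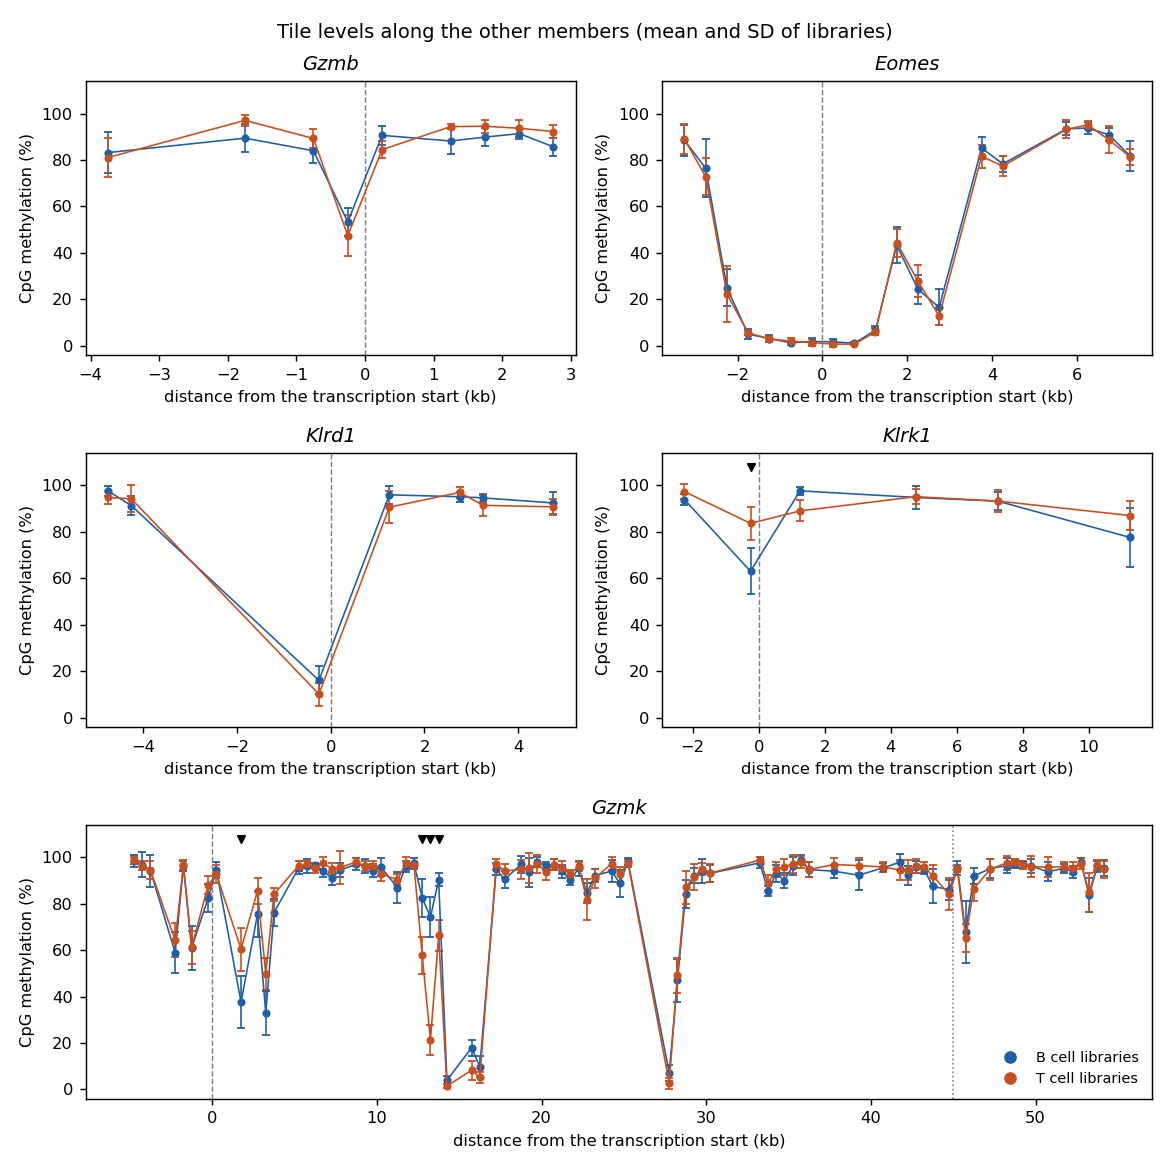
Methylation in percent of tested 500 bp tiles along Gzmb, Eomes, Klrd1, Klrk1 and Gzmk against distance from the transcription start in kb (dashed line; the dotted line in Gzmk is the principal start). Points and bars are the mean and SD of libraries and triangles mark tiles past both thresholds; the cell types follow each other in Eomes and Klrd1, and the Gzmk record dips apart at 13000 bp inside Esm1.

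Over whole regions, from 5 kb upstream to the gene end, 4 of 9 members passed the first threshold, all lower in T cells, against a background of 24.7% of 20617 regions (21% with B cells higher). Nkg7 was at 82.5% ± 2.42 and 75.3% ± 1.67, Gzma at 79.7% ± 2.36 and 73.8% ± 2.55, Ccl5 at 87.3% ± 1.19 and 82.0% ± 1.67 and Prf1 at 84.1% ± 1.15 and 80.8% ± 1.97 (SD, n = 8 each). The differences of 7.23, 5.91, 5.30 and 3.36 points had adjusted p of 2.71e-04, 0.00254, 2.35e-04 and 0.00502 and exact permutation p of 0.000155, 0.000622, 0.000155 and 0.000622. The other 5 did not pass. Eomes was at 28.5% ± 2.97 and 25.6% ± 1.47, Klrd1 at 86.9% ± 1.75 and 85.7% ± 2.58, Gzmk at 81.1% ± 0.599 and 80.2% ± 1.04, Klrk1 at 91.2% ± 2.43 and 91.4% ± 2.33 and Gzmb at 85.0% ± 1.15 and 85.5% ± 1.12 (SD, n = 8 each), so their differences ran from −0.526 to 2.85 points. All 4 calls were lost with BS, male or female libraries alone (adjusted p 0.0604 to 0.331), and that of Gzma also with oxBS libraries alone (adjusted p 0.0827). Without the 2 male BS libraries of B cells the regions of Eomes (3.33 points, adjusted p 0.0415) and Gzmk (0.857 points, adjusted p 0.0435) passed the first threshold, and Gzmk also passed without B cell library 4 (1.03 points, adjusted p 0.0245). No member region reached 20 points, against a background of 0.359%.

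BS and oxBS were then compared within each cell type, and male with female libraries, since a BS level above oxBS would mark 5-hydroxymethylcytosine. At the 9 start windows 0 passed an adjusted p under 0.05 for assay or sex in either cell type, against a background of 0%, with 0 of 9 also at an unadjusted p under 0.05. The BS minus oxBS differences lay between −8.40 and 3.98 points in B cells and between −1.78 and 7.36 points in T cells. Members higher in BS were 2 of 9 in B cells and 7 of 9 in T cells. The median difference was −0.540 points in B cells and 3.60 in T cells, against −0.347 and 0.559 over all windows. Over regions in T cells the background for assay was 5.91%, and 0 of 9 members passed, with 2 of 9 at an unadjusted p under 0.05. By assay or sex in B cells and by sex in T cells 0 of 9 regions passed, against a background of 0%. At an unadjusted p under 0.05 these were 1 of 9 by assay and 1 of 9 by sex in B cells, and 0 of 9 by sex in T cells. With 4 libraries against 4 an exact permutation p cannot go below 0.0286. The B minus T difference itself passed the interaction test by sex or assay in 0 of 9 windows, 0 of 9 regions and 0 of 180 tiles (background 0%, except 4.36% of regions by assay). At an unadjusted p under 0.05, 1 window, 1 region and 6 tiles passed by sex and 0 windows, 3 regions and 4 tiles by assay. Shares of all features at an unadjusted p under 0.05 were not counted, so the unadjusted counts here describe the members only. At Nkg7 the difference was 27.1 points in males and 21.5 in females, and 27.2 by BS and 21.4 by oxBS. The window below an unadjusted 0.05 was that of Klrd1, with 0.096 points in males and 19.2 in females. By assay the Prf1 window differed by 3.90 points in BS and 13.6 in oxBS libraries.

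Other genes of the cytotoxic pathway were examined at their starts in the same way. Of 41 listed genes, all tested, 5 passed both thresholds (12.2%, background 1.11%), all lower in T cells. The list was chosen with earlier results of these data known. Fasl, the death ligand that kills through Fas, went from 85.7% ± 3.51 in B cells to 20.5% ± 4.75 in T cells, 65.1 points (adjusted p = 1.88e-08, exact permutation p = 0.000155). Il2rb, a subunit of the receptors for IL-2 and related cytokines, differed by 29.0 points, and Ifng, the interferon gamma gene, by 26.9 points. Runx3 (23.7 points), a factor of CD8+ T cells, and Serpinb9 (23.7 points), an inhibitor of granzyme B, are the other two and were named after their values were seen. With the first threshold alone, 12 genes were lower in T cells and 1, the chemokine gene Ccl3, lower in B cells (19.3% against 29.4%). These are 29.3% and 2.44% of the list, against 7.46% and 3.01% of all windows. The median difference of the list was 1.27 points.

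Of the other granzyme genes, Gzmc, Gzmd, Gzme, Gzmf, Gzmg, Gzmn and Gzmm had window averages of 73.6% to 94.9% in both cell types, and none passed. Among genes of granule contents and release, named after their values were seen, levels differed widely. Unc13d, Rab27a, Stx11, Stxbp2 and Lamp1 were at or below 10.2% in both cell types, where the median of all windows was 13.7% in B cells and 12.4% in T cells, and Unc13d passed the first threshold at 5.50% and 2.68%. Srgn, the gene of the granule proteoglycan serglycin, was at 95.2% and 95.8% and did not pass, and the cathepsin gene Ctsw was at 70.4% and 58.2% and passed the first threshold. Tbx21, which encodes the T-box factor T-bet, was low in both at 3.73% and 2.22% and passed the first threshold (adjusted p = 0.0275, exact permutation p = 0.00233), which Eomes did not.

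**Figure D5:**
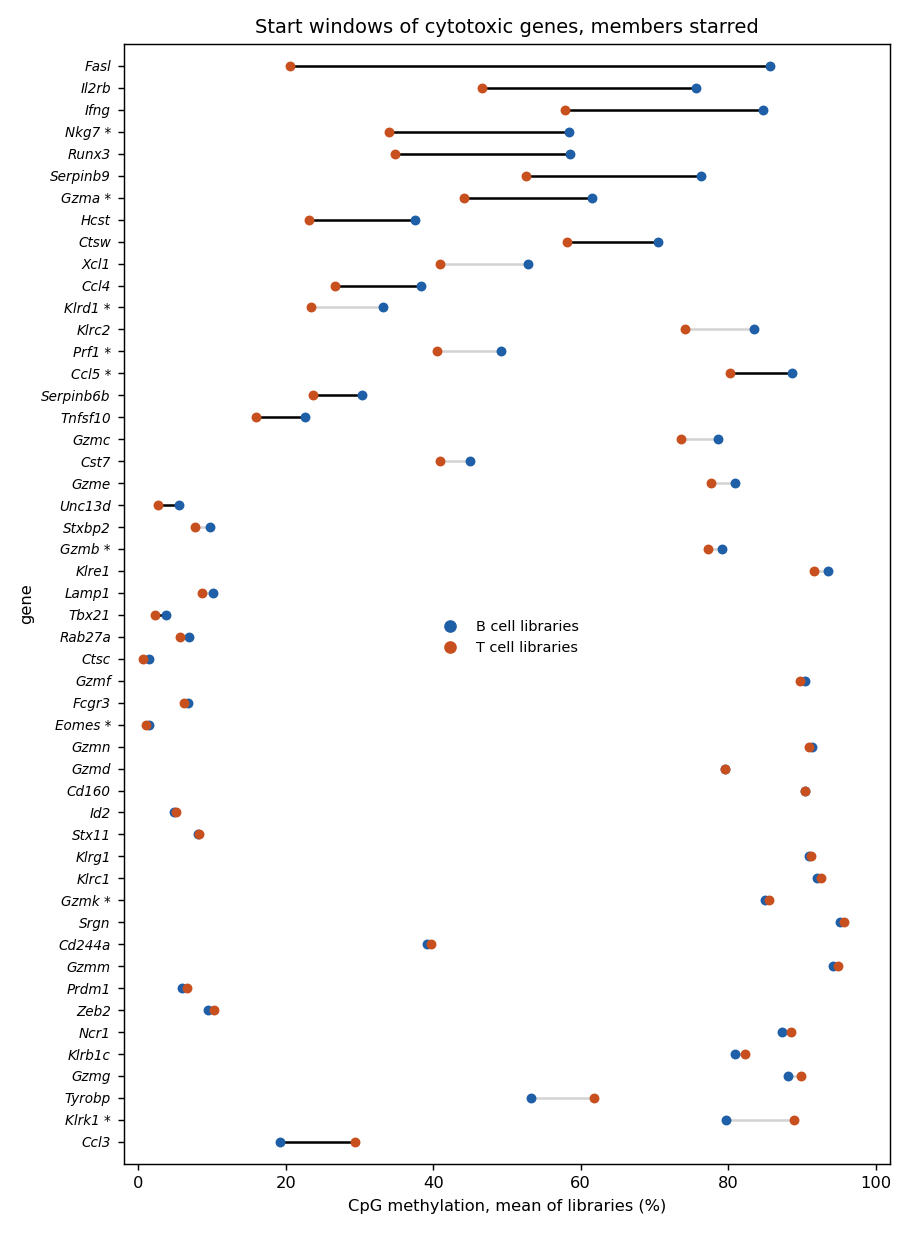
Mean methylation in percent within 1 kb of the start for the 41 pathway genes and the 9 members (starred), ordered by the B minus T difference. Points are means over libraries, joined by a black line where the adjusted p was under 0.05 and a grey line otherwise; Fasl spans 85.7% to 20.5%, and most genes show both points close together.

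Short motifs of factor families that act on these genes were counted in the tiles as a description. The T-box core TCACAC or its reverse complement GTGTGA occurs in 4 of the 12 tiles past both thresholds and in 28.6% of 1260965 full-length tested tiles. The RUNX core TGTGGT or its reverse complement ACCACA occurs in 6 of the 12 and in 33.4% of all. The first is present in the Nkg7 tiles at −500 and 0 bp, the Ccl5 tile at −5000 bp and the Gzmk tile at 1500 bp. A match is no evidence that a factor was bound.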

How the data were processed

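Whole genome BS and oxBS libraries of splenic B and T cells were used, 8 per cell type. The authors trimmed reads with Trim Galore 0.6.0, aligned them to mm10 (GRCm38) with Bismark 0.20.0 and processed alignments with SAMtools 1.3.1, per the labels, and kept calls from reads above a mapping quality minimum. The deposited files give, per cytosine position of a CpG, counts of unmethylated and methylated calls, not normalised and with libraries kept apart. No bisulphite conversion rate was applied here.

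Positions were matched to CpGs of GRCm38, and positions off the reference CpGs or on contigs were left out. Calls were pooled per library over the window of 1 kb on either side of the transcription start, over 500 bp tiles and over the region from 5 kb upstream to the gene end (GENCODE vM21). A library entered with at least 20 calls and a feature with at least 3 CpGs and 5 libraries per cell type (3 where 4 libraries were compared with 4). Depth was 5.83 to 8.07 calls per autosomal CpG, and the calls per window set the precision of each level; PCR duplicates cannot be told from molecules. A quasi-binomial logistic model with cell type, sex and assay, dispersion not below 1 and an F test was fitted to all autosomal protein-coding genes and adjusted by Benjamini-Hochberg over all features of a kind (Python 3.11.15, NumPy 2.4.6, SciPy 1.17.1, pandas 2.3.3, Matplotlib 3.10.9). It was also run on simulated calls with an assumed, fixed spread between libraries, and the outcome is not given here. For assay and sex the size set was 10 points. Exact permutation tests are two-sided and not adjusted unless stated.

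Members and lists were chosen with earlier results of these data known. All 9 members are named, each with its window, region and tiles, the largest tile past both thresholds in each direction or else the largest tile; of the pathway list the counts past both thresholds and the 3 largest of those in each direction are named by rule, and other pathway genes were named after their values were seen. Call shares of identical CpGs on chromosome 19 were 7.03% to 8.88% for any pair of libraries, so no library was counted as a repeat. Alternatives changed the libraries, call and CpG minimums, sizes, window, tiles, starts, covariates and test. The sequence of a further upstream stretch of one gene is not reported here.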

Additional observations from a re-analysis of the deposited data

Results flagged for a closer look

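Of 68 groups of libraries checked for a value far from the others, 2 held one, and chance alone gives about 1 in 20. In the Gzmk tile at 1500 bp, B cell library 2 (male, oxBS) was at 62.1%, while the next highest B cell library was at 42.9% and the lowest at 28.6%. In the Eomes tile at 2500 bp, the same library was at 31.8%, with the next at 17.4% and the lowest at 11.1% of 6 libraries. Without this library the differences were −26.3 points in the Gzmk tile and 0.759 points in the Eomes tile, against −22.8 and 3.81 with it.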

How the results depend on the processing

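No paired analysis was possible because the cell types share no replicate numbers. Members passing the first threshold at start windows numbered 3, against 1 with BS libraries only, 1 with male and 0 with female libraries only (3 to 4 when a library was left out). Members past both numbered 1, against 0 with female libraries only, 2 at a size of 10 points, 0 at 30 points and 2 with a window of 500 bp on either side (1 when any library was left out). Regions past the first threshold numbered 4, against 0 with BS, male or female libraries only and 6 without both male BS libraries of B cells (4 to 5 when a library was left out). Tiles lower in T cells numbered 10, against 4 with BS, 2 with oxBS, 3 with male and 3 with female libraries only, 3 with at least 40 calls, 18 at 10 points, 5 at 30 points, 4 with tiles of 1000 bp and 5 with at least 5 CpGs (10 to 11 when a library was left out). Fits with 4 libraries against 4 have fewer samples by construction. Tiles lower in B cells numbered 2, against 0 with BS, oxBS, male or female libraries only or at 30 points. They numbered 1 with at least 40 calls, without both male BS libraries of B cells, with tiles of 1000 bp and with tiles shifted by 250 bp. They also numbered 1 when the Gzmk tiles were limited to those from 5 kb upstream of its principal start to the gene end. That count was 1 without any of B cell libraries 1, 4, 9, 11 and 12 and T cell libraries 6, 7, 13 and 15 (range 1 to 2).

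Signs that turned were all of differences that did not pass: Gzmb window with BS only (−0.0754 points), Gzmk window with oxBS only (1.02), female only (0.386), without both male BS libraries of B cells (0.0888) and at the principal start (1.49), Klrk1 window at the principal start (4.86), Klrd1 region with BS only (−1.36), Klrk1 region with oxBS only (2.39), without both male BS libraries (0.378) and with a library left out (from −0.728 to 0.501), and the Eomes tile at 2500 bp with female libraries only (−0.821). The cause was not tested. Of 34 single values followed, 28 never turned. The alternatives without both male BS libraries and with the Gzmk tiles limited by the principal start were chosen after seeing the data. Of 306 tiles, 126 could not be tested, 87 with fewer CpGs than the minimum and 39 with too few calls.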
